A study of Mus musculus with 8 samples.

Results

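MHC class I genes and the genes that make and load their peptides were examined in ileal crypt cells of C57BL/6 mice given CPT-11 or vehicle. Members were the rows of the deposited count table whose gene name was an H2-K, H2-D, H2-Q, H2-T or H2-M gene with a number, together with 14 named genes of peptide production and loading. The rule found 44 of the 56030 rows, which are 2 classical heavy chains, 27 non-classical heavy chain rows, the pseudogene H2-K2 and the 14 loading genes. Some of the 27 rows are annotated as pseudogenes too (H2-Q3, H2-Q5, H2-T10, H2-M6-ps and H2-M10.5-ps1). CPT-11 is irinotecan, a prodrug whose active form traps topoisomerase I on DNA. The CPT-11 group received 20 mg/kg for 7 days, the control group received vehicle, and each group had 4 libraries of the same strain. Any genotype beyond the strain, and the route, sex, age and vehicle solution, were not given in the sources used here. Crypts were freed from the ileum with EDTA and shaking, strained and dissociated with trypsin, and no sort is described, so cells other than epithelium could be carried along. Nothing in the labels ties a library to a single mouse, so p-values measure only the spread between these libraries, which may be partly technical.

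MHC class I molecules display short peptides from inside the cell to T cells and natural killer cells. A heavy chain pairs with the invariant light chain beta-2 microglobulin, encoded by B2m. Proteasomes cut the peptides, the transporter of Tap1 and Tap2 carries them into the endoplasmic reticulum, Erap1 trims them, and tapasin (Tapbp), calreticulin (Calr) and the disulfide isomerase Pdia3 hold the empty heavy chain until a peptide fits. Classical molecules (H2-K1 and H2-D1 in this strain) show varied peptides to CD8 T cells, whereas non-classical molecules have narrower ligands and more restricted tissues. Interferons raise many of these genes, and Nlrc5 is the transcriptional activator of class I, acting at a promoter module that holds X and Y boxes. In the small intestine, H2-T3 (the thymus leukaemia antigen) is known as an epithelial class I molecule that binds CD8 alpha homodimers of intraepithelial lymphocytes.

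Promoter sequence was used to see which members carry the letters of that module. RefSeq windows (GRCm38.p6, 250 bases before to 50 bases after a start) were available for 33 of the 44 members. The letters TGACG, as in the X2 box, followed on the same strand after 18 to 22 bases by ATTGG, the Y box read as a reversed CCAAT, were found in either orientation in the windows of 5 members and in 0.296% of all 27025 genes. This pair of letters was put together after the windows had been read. The stretches are shown because they put both classical heavy chains and the light chain side by side, with TGACG and ATTGG in capitals. They lie at chr17:34000359-34000388 on the minus strand for H2-K1, chr17:35262993-35263022 on the plus strand for H2-D1, chr2:122147609-122147638 on the plus strand for B2m, chr17:35439091-35439119 on the plus strand for H2-Q7 and chr17:37270188-37270217 on the plus strand for H2-M3.
H2-K1: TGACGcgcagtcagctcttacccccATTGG
H2-D1: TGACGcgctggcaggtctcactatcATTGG
B2m: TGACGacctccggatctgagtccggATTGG
H2-Q7: TGACGtgtaacagttctcacccctATTGG
H2-M3: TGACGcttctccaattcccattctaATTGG
The letters were 20 bases apart in H2-K1, H2-D1, B2m and H2-M3 and 19 bases apart in H2-Q7. A longer stretch before the start is shown for H2-K1 and B2m, since exact matches to the other letters searched differed between them. Only exact letters were searched, so a stretch without a match can still hold a variant of the same element. In H2-K1 (chr17:34000359-34000457, minus strand) the capitals mark GGGATTCC, an NF-kB-like core, and then TGACG and ATTGG. In B2m (chr2:122147548-122147638, plus strand) they mark GAAACTGAAA, a match to the interferon response core (GAAA, any 2 bases, GAAA), and then TGACG and ATTGG.
H2-K1: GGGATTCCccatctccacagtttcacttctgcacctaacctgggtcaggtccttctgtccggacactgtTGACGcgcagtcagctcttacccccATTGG
B2m: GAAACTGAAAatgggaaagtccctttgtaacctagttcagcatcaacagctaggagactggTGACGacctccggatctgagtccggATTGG

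Of the 22 tested members with a window, 4 held GGGATTCC on either strand (H2-D1, H2-K1, H2-Q6 and H2-Q7), against 1.23% of all genes. The interferon response core was present on either strand in 5 (B2m, Erap1, H2-T22, H2-T23 and Psme1), against 3.99% of all genes. CCAAT was found in 15 of the 22 and in 41.1% of all genes, and TGACG in 11 of the 22 and in 6228 of the 27025 genes. The palindromic letters TTCNNNGAA were in H2-M3 and Psmb8, against 9.55% of all genes. These matches describe letters in a window and not binding. Heavy chain genes resemble each other, so their matches here and to the paired letters need not be separate.

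Libraries held 20790164 to 23479121 counts. Vehicle libraries correlated with each other at Spearman rho 0.987 to 0.990 (across tested genes, which are no replicates). CPT-11 replicate 2 stood apart from its group, at rho 0.931 to 0.962, whereas CPT-11 replicates 1, 3 and 4 correlated at 0.973 to 0.988. Its TMM scaling factor, which corrects for a few abundant genes taking a large share of a library, was 0.731, against 0.977 to 1.10 in the other 7 libraries, so its CPM, a gene's count relative to the scaled library total, were raised through that factor. Crypt markers were present in both groups, with summed levels of 27039 to 31746 CPM with vehicle, against 20412 to 25255 CPM with CPT-11. Most of that sum was the Paneth cell lysozyme Lyz1 (19340 ± 2552 and 12813 ± 1988 CPM). The stem cell markers Lgr5 and Olfm4 and the cycling marker Mki67 fell, to 0.240, 0.288 and 0.441 of the vehicle level (edgeR adjusted p = 7.9e-05, 0.00078 and 0.030), while the epithelial genes Epcam, Krt8 and Vil1 did not pass. Enterocyte markers summed to 11423 to 18628 CPM with vehicle, against 20811 to 63733 CPM with CPT-11, the highest in CPT-11 replicate 2. In these bulk libraries a change in the mix of cells and a change of RNA per cell cannot be told apart.

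None of the members passed the test between CPT-11 and vehicle. The expression filter kept 31 members, of which 0 rose and 0 fell at an adjusted p below 0.05 (edgeR quasi-likelihood test, Benjamini-Hochberg over 14011 genes). Of all genes tested 5.5% were called, 2.98% higher and 2.52% lower. At an unadjusted p below 0.05, 8 members were higher and 1 was lower, which is 25.8% and 3.23% of those tested, against 13.4% and 11.2% of all genes. In both directions together this was 29.0% of the members and 24.6% of all genes. Fold changes were positive for 27 of the 31 members and for 51.3% of all genes, and with libraries scaled by total counts alone they were positive for 22 of the 31. The median log2 fold change was 0.31 for the members and 0.014 for all genes. Scaling by total counts alone left 3 members higher and 1 lower at an unadjusted p below 0.05. Those were 9.68% and 3.23% of the members, against 8.83% and 10.5% of all genes. With DESeq2, B2m, H2-D1, H2-K1 and H2-K2 passed upward and H2-Q10 downward, and with limma-voom 0 passed. The smallest adjusted p by edgeR was 0.0681, for H2-K2. The plot of fold changes by class gives each member with its 95% interval.

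**Figure D1:**
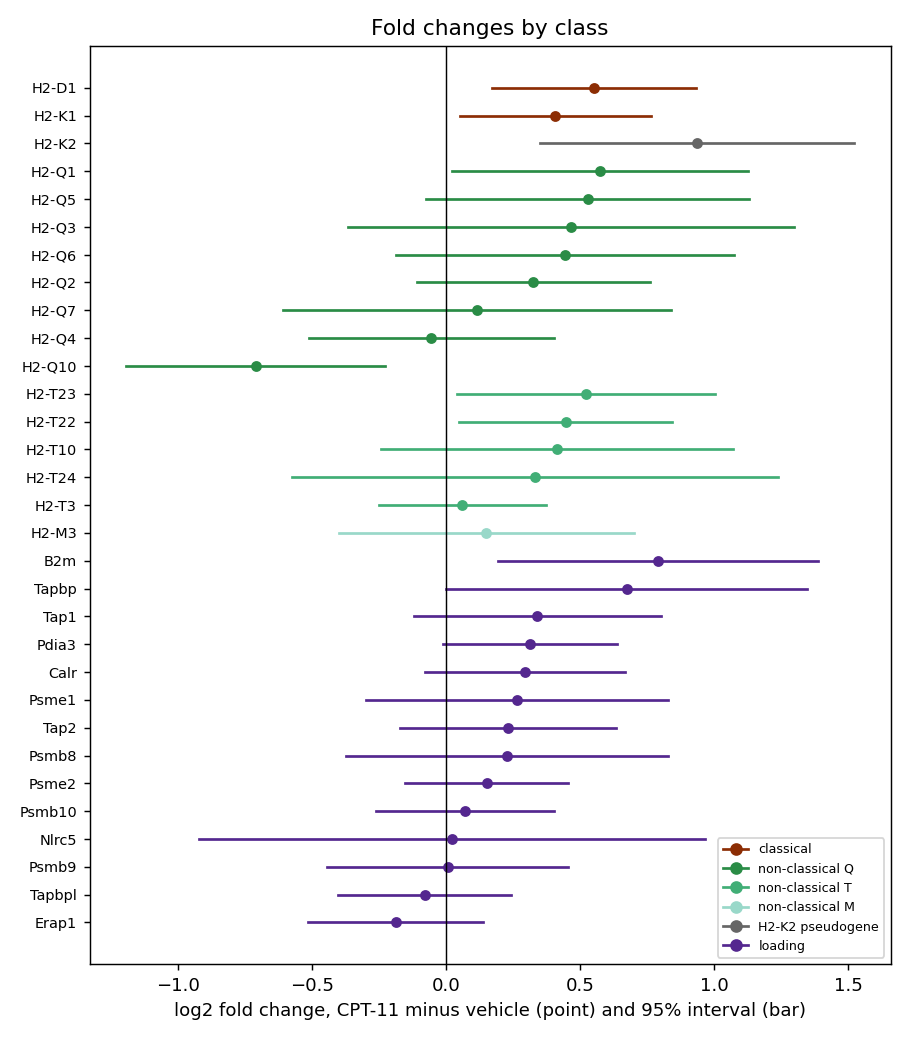
Fitted log2 fold change (CPT-11 minus vehicle, horizontal axis) of the 31 tested members with its 95% interval, coloured by class, 4 libraries per group. Both classical genes lie right of 0 (0.41 and 0.55), H2-Q10 lies furthest left (-0.71) and Nlrc5 has a wide interval around 0 (-0.92 to 0.97).

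Both classical heavy chains had higher means with CPT-11, and neither passed the adjusted threshold. H2-K1 (chromosome 17, 33996017 to 34000347, GRCm38, protein-coding) stood at 726, 820, 843 and 984 CPM in vehicle replicates 1 to 4 and at 1001, 1265, 1153 and 1052 CPM in CPT-11 replicates 1 to 4. Every CPT-11 library was above every vehicle library, with CPT-11 replicate 1 just above vehicle replicate 4. The fold was 1.33 (95% interval 1.04 to 1.70, adjusted p = 0.157 by edgeR). H2-D1 (chromosome 17, 35262730 to 35267499, protein-coding) stood at 521, 564, 623 and 766 CPM with vehicle and at 836, 1069, 878 and 837 CPM with CPT-11. The groups did not overlap here either, and vehicle replicate 4 was again the highest of its group. The fold was 1.46 (1.12 to 1.91, adjusted p = 0.0912). DESeq2 called both genes, limma-voom with quality weights called H2-D1, and the log2 fold change over the alternatives was 0.27 to 0.49 for H2-K1 and 0.41 to 0.67 for H2-D1.

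Groups without overlap were counted for 6 of the 31 tested members, all higher with CPT-11, which is 19.4% of them, against 8.41% of all genes higher, 10.1% lower and 18.5% in either direction. They were H2-K1, H2-D1, H2-K2, B2m, Tapbp and Pdia3. Calr, Tap1 and Tap2, which belong to the same loading complex as Tapbp and Pdia3, overlapped between the groups. None of the 14 tested non-classical members was among them. With libraries scaled by total counts alone, only B2m and H2-K2 remained apart upward (6.45% of the members, 5.88% of all genes), H2-Q10 was apart downward, and H2-K1, H2-D1, Tapbp and Pdia3 overlapped.

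B2m (chromosome 2, 122147686 to 122153083), the light chain that every class I heavy chain needs, was the most abundant member per length. It stood at 617, 678, 678 and 798 CPM with vehicle and at 931, 1982, 982 and 891 CPM with CPT-11. CPT-11 replicate 2 was far above the rest of its group, and the other 3 were still above every vehicle library. The fold was 1.73 (1.14 to 2.61, adjusted p = 0.112). Without CPT-11 replicate 2 the log2 fold change went from 0.79 to 0.44 (adjusted p = 0.0581), and without CPT-11 replicates 2 and 4 it was 0.47 and passed (adjusted p = 0.0461).

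Tapbp, tapasin, which bridges the heavy chain to the peptide transporter (chromosome 17, 33915899 to 33929292), had the next highest difference among loading genes. It stood at 123, 154, 157 and 160 CPM with vehicle and at 160, 426, 199 and 162 CPM with CPT-11. CPT-11 replicate 2 was the highest by far, and CPT-11 replicates 1 and 4 lay just above the highest vehicle library. The fold was 1.59 (1.0 to 2.54, adjusted p = 0.203), and without CPT-11 replicate 2 the log2 fold change went from 0.67 to 0.24 (adjusted p = 0.285). Pdia3, an oxidoreductase of the loading complex, was at 517 ± 29.1 CPM with vehicle and at 641 ± 87.5 CPM with CPT-11 (mean ± SD, n = 4 each). Its fold was 1.24 (0.992 to 1.55, adjusted p = 0.216). Calr, the chaperone calreticulin, was at 857 ± 96.3 and 1050 ± 164 CPM with overlapping groups (adjusted p = 0.301). Tapbpl, the tapasin-related peptide editor, had a log2 fold change of -0.081 (-0.40 to 0.24, adjusted p = 0.750).

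**Figure D2:**
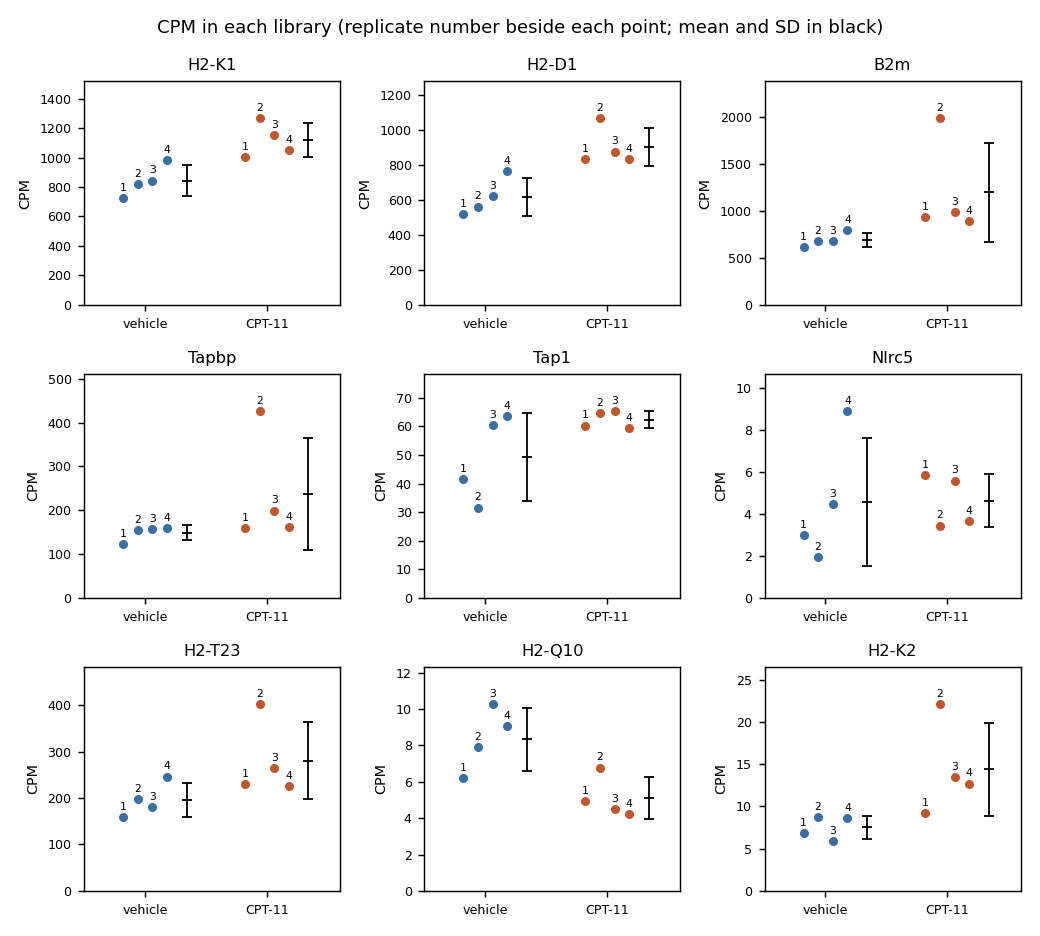
CPM (vertical axis, from 0) in each vehicle and CPT-11 library for 9 members, with the replicate number at each point and mean ± SD in black. B2m and Tapbp are set apart by CPT-11 replicate 2 (1982 and 426 CPM), H2-K1 and H2-D1 are separated by group without it, and Nlrc5 is highest in vehicle replicate 4 (8.91 CPM).

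The genes for peptide supply showed no difference that could be resolved. Tap1, one chain of the transporter (chromosome 17, 34187553 to 34197225), stood at 41.5, 31.6, 60.5 and 63.6 CPM with vehicle and at 60.3, 64.5, 65.3 and 59.5 CPM with CPT-11. The vehicle libraries fell into a low pair (replicates 1 and 2) and a pair at the level of the CPT-11 libraries. The fold was 1.27 (0.919 to 1.74, adjusted p = 0.330). Tap2, the partner chain, stood at 21.9, 24, 30.5 and 36.9 CPM with vehicle and at 35.6, 30.1, 38.0 and 29.3 CPM with CPT-11 (fold 1.17, 0.888 to 1.55, adjusted p = 0.440). Erap1, the trimming aminopeptidase, was the loading gene with the lowest log2 fold change, -0.19 (-0.51 to 0.14, adjusted p = 0.439).

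Psmb8, Psmb9 and Psmb10 encode the catalytic subunits that replace Psmb5, Psmb6 and Psmb7 when an immunoproteasome is assembled. Psmb8 stood at 55.2, 41.6, 87.3 and 75.5 CPM with vehicle and at 65.1, 113, 57.1 and 68.6 CPM with CPT-11, so the groups overlapped (adjusted p = 0.622). Psmb9 stood at 44.9, 31.7, 62.1 and 54.3 CPM with vehicle and at 48.7, 57.1, 40.5 and 47.5 CPM with CPT-11, a difference of 0.0054 on the log2 scale (-0.44 to 0.46, adjusted p = 0.990). Psmb10 stood at 141, 158, 177 and 157 CPM with vehicle and at 150, 198, 136 and 179 CPM with CPT-11 (fold 1.05, 0.833 to 1.32, adjusted p = 0.798). All 3 therefore had overlapping groups, with vehicle replicate 2 low for Psmb8 and Psmb9.

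Each immune subunit was also set against the constitutive subunit it replaces, as a log2 ratio of CPM in the same library, where scaling cancels. The Psmb8 to Psmb5 ratio was -0.72 ± 0.44 with vehicle and -0.60 ± 0.31 with CPT-11. The Psmb9 to Psmb6 ratio was -1.55 ± 0.36 and -1.64 ± 0.30, and the Psmb10 to Psmb7 ratio was 0.39 ± 0.071 and 0.28 ± 0.12. None of the 3 ratios differed beyond the spread between libraries (exact permutation test, two-sided, p = 0.686, 0.743 and 0.171, adjusted p = 0.743, 0.743 and 0.514, n = 4 each, where the smallest unadjusted p the design allows is 0.0286). After adjustment over the 3 ratios, 1 ratio alone could not have passed even with its groups fully apart. The activator subunits Psme1 and Psme2, which form the interferon-responsive cap of the proteasome, had log2 fold changes of 0.26 (-0.30 to 0.83, adjusted p = 0.531) and 0.15 (-0.15 to 0.45, adjusted p = 0.505).

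Nlrc5, the class I transactivator (chromosome 8, 94434356 to 94527272), was the lowest tested member per length. It stood at 3.01, 1.94, 4.46 and 8.91 CPM with vehicle and at 5.85, 3.45, 5.60 and 3.66 CPM with CPT-11. Its highest and its lowest library were both vehicle libraries, and the CPT-11 libraries lay between them. The log2 fold change was 0.021 (-0.92 to 0.97, adjusted p = 0.981), an interval that allows a change in either direction.

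Among the 8 H2-Q rows was the only member with a lower level at an unadjusted p below 0.05. H2-Q10, a class I gene known as a secreted product of liver (chromosome 17, 35470089 to 35474563), stood at 6.19, 7.89, 10.3 and 9.05 CPM with vehicle and at 4.96, 6.78, 4.51 and 4.22 CPM with CPT-11. CPT-11 replicate 2 overlapped the vehicle group and the other 3 lay below it. The fold was 0.610 (0.437 to 0.853, adjusted p = 0.0851). H2-Q10 passed in 4 of 19 alternatives, among them without CPT-11 replicate 2 (log2 fold change -0.86, adjusted p = 0.0227) and by DESeq2, with adjusted p from 0.0100 to 0.237 over all of them.

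The most abundant Q gene was H2-Q2, at 215, 288, 229 and 205 CPM with vehicle and at 322, 306, 349 and 197 CPM with CPT-11. Its neighbour H2-Q1 stood at 38.2, 62.9, 45.4 and 38.5 CPM with vehicle and at 72.4, 81.1, 82.5 and 39.5 CPM with CPT-11. For both genes CPT-11 replicates 1 to 3 were above the vehicle libraries and CPT-11 replicate 4 was within or below them. The folds were 1.25 for H2-Q2 (0.926 to 1.69, adjusted p = 0.324) and 1.49 for H2-Q1 (1.01 to 2.18, adjusted p = 0.189), and both passed without CPT-11 replicates 2 and 4 (adjusted p = 0.0406 and 0.0454). Summed, H2-Q1 and H2-Q2 were at 281 ± 48.8 CPM with vehicle and at 363 ± 86.4 CPM with CPT-11.

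H2-Q6 and H2-Q7 encode the Qa-2 antigen, and their sum ran from 16.7 to 53.1 CPM within the vehicle group and from 30.2 to 40.7 CPM with CPT-11. H2-Q7 stood at 16.0, 11.95, 21.4 and 40.2 CPM with vehicle and at 24.3, 21.3, 22.6 and 28.7 CPM with CPT-11, with vehicle replicate 4 above every other library (adjusted p = 0.847). The other Q rows were H2-Q4, H2-Q6 and the annotated pseudogenes H2-Q3 and H2-Q5. Their log2 fold changes were -0.057 for H2-Q4 and 0.44 to 0.53 for the rest, with adjusted p of 0.253 to 0.881 for these 4.

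Among the 5 H2-T members, all fold changes were positive and none passed, with H2-T3 turning to -0.074 when libraries were scaled by total counts alone. H2-T23, the Qa-1 molecule that shows leader peptides of other class I chains to natural killer receptors, stood at 159, 197, 180 and 246 CPM with vehicle and at 230, 402, 264 and 225 CPM with CPT-11. Only vehicle replicate 4 reached into the CPT-11 range. The fold was 1.43 (1.03 to 2.0, adjusted p = 0.176), and without CPT-11 replicate 2 the log2 fold change went from 0.52 to 0.31 (adjusted p = 0.232). H2-T22, a ligand of some gamma delta T cell receptors, stood at 40.7, 45.9, 48.6 and 61.2 CPM with vehicle and at 57.0, 86.0, 55.5 and 68.8 CPM with CPT-11 (fold 1.36, 1.03 to 1.79, adjusted p = 0.164). Vehicle replicate 4 again overlapped the CPT-11 group. H2-T3, the epithelial thymus leukaemia antigen, stood at 134, 169, 148 and 146 CPM with vehicle and at 150, 181, 163 and 128 CPM with CPT-11. Its groups overlapped throughout, and its 95% interval was the narrowest of the 17 tested heavy chain rows (fold 1.04, 0.840 to 1.29, adjusted p = 0.813). H2-T10, annotated as a polymorphic pseudogene (1.45 to 3.73 CPM), and H2-T24 (at most 3.71 CPM) were low in all libraries, with adjusted p = 0.399 and 0.634.

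The 14 H2-M rows were nearly silent. H2-M3, which presents N-formylated peptides of bacteria, was the only one past the filter, at 2.0, 1.85, 2.75 and 2.86 CPM with vehicle and at 2.81, 2.96, 2.76 and 1.98 CPM with CPT-11 (adjusted p = 0.729). H2-M2 had 1 to 19 counts per library, H2-M10.6 had 3 counts in all and H2-M5 had 1. H2-M2 passed upward in the fits without CPT-11 replicate 2 and without CPT-11 replicates 2 and 4. The other 10 H2-M rows, most of them of the H2-M10 group known from the vomeronasal organ, had 0 counts in every library, which allows up to 0.125 to 0.185 CPM per library for counting error only.

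H2-K2, annotated as a transcribed unprocessed pseudogene beside H2-K1 (chromosome 17, 33974659 to 33978827), had the largest fold change of the 31 tested members. It stood at 6.84, 8.73, 5.86 and 8.58 CPM with vehicle and at 9.23, 22.1, 13.4 and 12.7 CPM with CPT-11. The groups did not overlap, with CPT-11 replicate 1 just above the vehicle libraries. The fold was 1.91 (1.27 to 2.87, adjusted p = 0.0681), and without CPT-11 replicate 2 the log2 fold change went from 0.94 to 0.67 (adjusted p = 0.0568). It passed with no filter and by DESeq2.

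Heavy chain genes resemble each other, and the deposited counts were estimated, so reads may be shared among them. Of the 50-base words in the GENCODE M21 transcripts of a gene, 9.63% for H2-K1, 12.8% for H2-D1, 9.38% for H2-K2 and 19.0% for H2-Q10 also occurred in another gene. The share was 36.4% for H2-Q5, 34.5% for H2-T22 and 32.9% for H2-T10, the last 2 mainly with each other, and 26.4% for H2-Q7. H2-Q10 shared most with H2-Q7, in 14.0% of its words. These shares do not bound the uncertainty of a gene's value, since a partner can be far more abundant. H2-K1 (843 ± 107 CPM with vehicle) shared 5.18% of its words with H2-Q10, which was at 8.35 ± 1.74 CPM. H2-T3 (0.894%), H2-M3 (0.576%), B2m (0%), Nlrc5 (0%), Tap1 (0.442%) and Psmb8 (0.227%) were nearly free of such sharing. Psme2 shared 28.3% of its words, all of these with Psme2b. Psmb9 (chromosome 17, 34181987 to 34187764, minus strand) overlaps the start of Tap1 on the plus strand, and no strand setting was given for the counting, so reads from the overlap cannot be told apart.

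**Figure D3:**
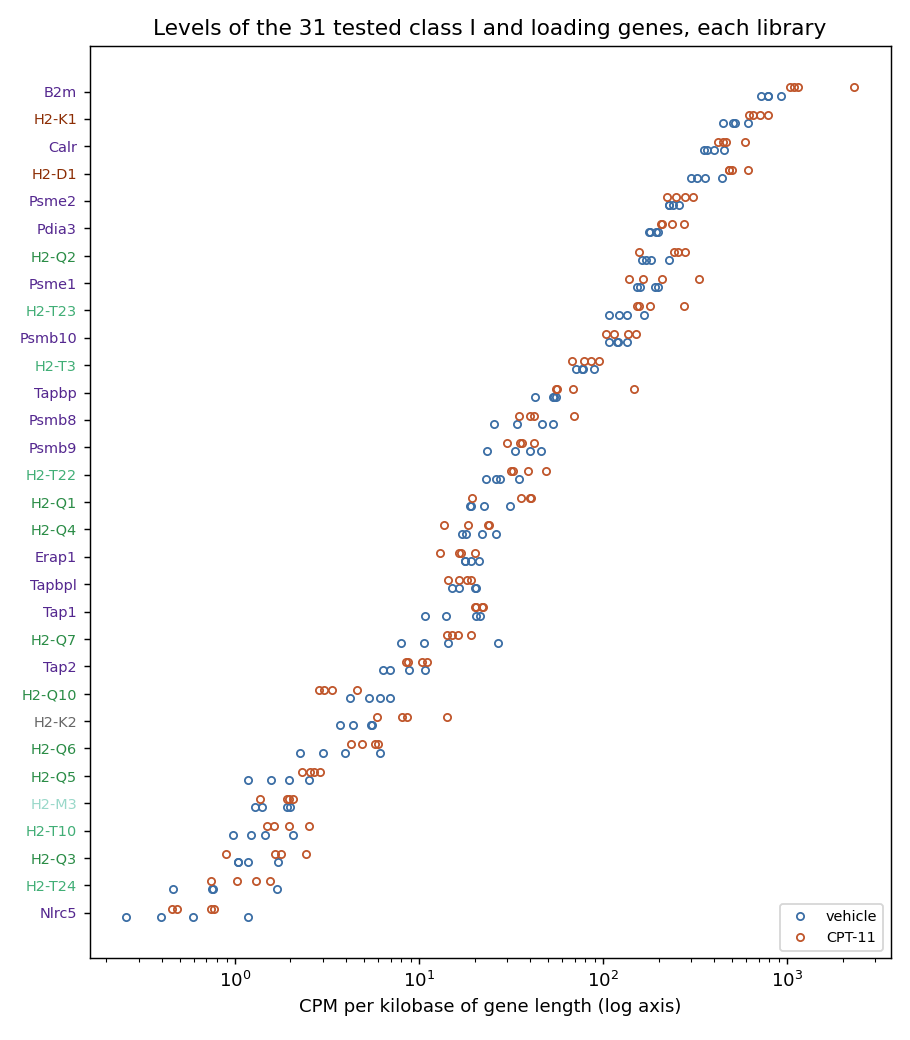
CPM per kilobase of the deposited gene length (log axis) of the 31 tested members in each vehicle and CPT-11 library, in order of the vehicle mean. B2m is highest (805 with vehicle) and Nlrc5 lowest (0.604).

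Members were ranked by level per length, since CPM alone favours long genes. With vehicle, B2m stood at 805 ± 88.4 CPM per kilobase, H2-K1 at 521 ± 66.0, Calr at 392 ± 44.1 and H2-D1 at 355 ± 61.3. B2m did not overlap H2-K1, while H2-K1 overlapped Calr, and Calr overlapped H2-D1. Below these came Psme2 (238 ± 15.1), Pdia3 (187 ± 10.5), H2-Q2 (186 ± 29.6), Psme1 (175 ± 22.8), H2-T23 (133 ± 25.3), Psmb10 (121 ± 11.5) and H2-T3 (78.7 ± 7.59). From Pdia3 to Psmb10 each neighbour in the order overlapped the next. Tap1 (16.7 ± 5.19) and Tap2 (8.23 ± 1.97), in the same unit, had means below both classical heavy chains, H2-Q2, H2-T23, H2-T3 and H2-T22, and above H2-Q10, H2-Q6 and H2-M3. Tap2 overlapped H2-Q10 with vehicle (6.37 to 10.7 and 4.20 to 6.97).

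The split of heavy chain transcripts between classes overlapped between the groups. The classical genes made up 63.3 ± 2.50% of all class I heavy chain CPM per kilobase with vehicle and 65.5 ± 2.63% with CPT-11. The H2-Q genes made up 18.7 ± 2.30% and 17.1 ± 3.12%, and the H2-T genes 17.5 ± 0.609% and 16.8 ± 1.84%. The summed CPM of the 2 classical genes was 1462 ± 212 with vehicle and 2023 ± 223 with CPT-11, without overlap, although scaling by total counts alone made the groups overlap (1361 to 1852 and 1706 to 2232). The 27 non-classical rows summed to 760.0 ± 80.0 and 953 ± 161 CPM, with overlap. The median log2 fold change was 0.48 for the classical genes, 0.37 for the 14 tested non-classical genes and 0.23 for the 14 loading genes. For the loading genes, leaving out CPT-11 replicate 2 gave a median of 0.11, leaving out vehicle replicate 1 or 2 gave 0.15 or 0.14, and scaling by total counts alone gave 0.055. For the non-classical genes it was 0.56 leaving out vehicle replicate 4, 0.25 leaving out CPT-11 replicate 3 and 0.23 with total counts alone, and the classical median was 0.34 to 0.58 over the alternatives. Whether the classes differ in their response was not tested. Heavy chains outnumbered the light chain per length by 1.71 ± 0.044 with vehicle and 1.44 ± 0.34 with CPT-11. CPT-11 replicate 2 was at 0.935 in this ratio, and the other 3 CPT-11 libraries were at 1.57 to 1.66.

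Some members differed among the vehicle libraries in the same order as 3 of the 9 marker sums. T cell markers summed to 262, 169, 469 and 523 CPM in vehicle replicates 1 to 4, with all 10 detected. General leukocyte markers summed to 56.5, 45.4, 97.2 and 180 CPM, and interferon-stimulated genes to 89.3, 78.3, 114 and 194 CPM. All 3 sums had replicate 2 lowest, then 1, 3 and 4, whereas the sum of B and plasma cell markers did not (1.44, 4.38, 5.88 and 4.90 CPM). The same order held for 8 of the 31 tested members (H2-M3, H2-Q4, H2-Q5, H2-Q6, H2-Q7, Nlrc5, Tap1 and Tapbpl), which is 25.8% against 4.32% of all genes. The H2-Q genes among them may share reads, so they need not be separate matches. H2-Q5 shared 25.5% of its 50-base words with H2-Q7, and H2-Q6 shared 13.9% with H2-Q7 and 12.3% with H2-Q4. Vehicle replicate 4 was the highest of its group for 17 of the 31 members, against 23.8% of all genes. The part of T cells, other leukocytes or interferon in these member levels was not tested.

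**Figure D4:**
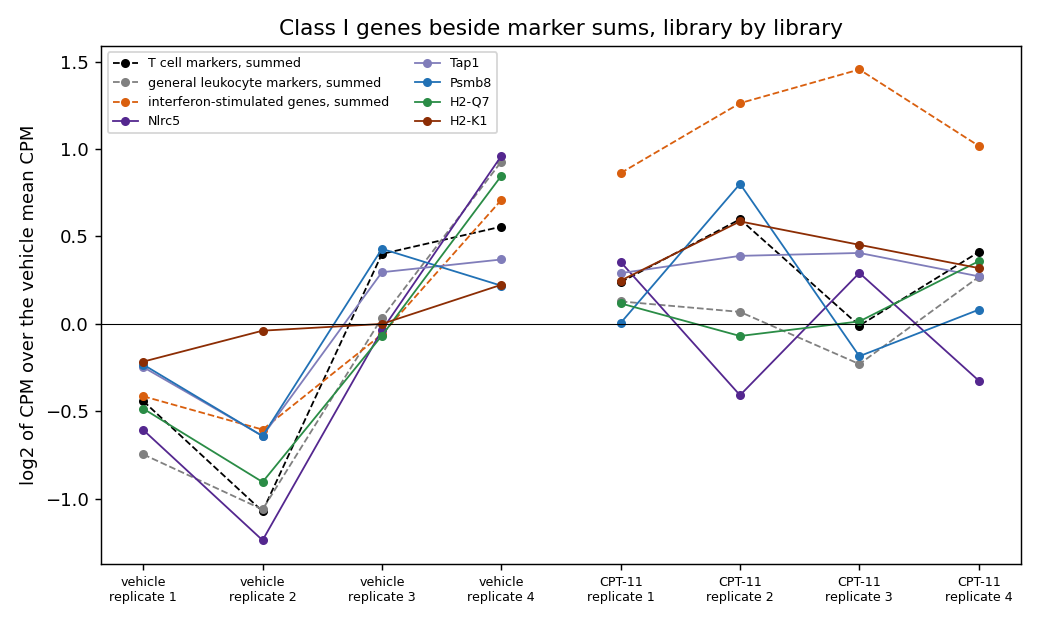
log2 of CPM over the vehicle mean (vertical axis) in the 8 libraries for 5 members and for 3 marker sums (dashed). Lines only join the values of 1 gene or sum. Nlrc5, H2-Q7 and the leukocyte sum are low in vehicle replicate 2 and high in vehicle replicate 4, and the interferon-stimulated sum is above the vehicle libraries in all CPT-11 libraries (216 to 326 CPM).

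With CPT-11 the marker sums did not move alike. T cell markers were at 353 to 539 CPM and general leukocyte markers at 80.9 to 114 CPM, against 169 to 523 and 45.4 to 180 CPM with vehicle. Markers of macrophages and dendritic cells summed to 44.0 to 59.3 CPM with CPT-11, against 37.8 to 49.6 CPM with vehicle. The largest part was Lyz2 (26.7 ± 7.71 CPM with CPT-11 and 29.0 ± 1.70 CPM with vehicle). Of the 5 tested 1 rose, Cd14 (2.49-fold, edgeR adjusted p = 0.00658), and 0 fell. Markers of B and plasma cells summed to 7.44 to 16.1 CPM with CPT-11 and 1.44 to 5.88 CPM with vehicle, with 4 of the 5 tested rising. Of all genes tested, 2.98% rose. Dissociation stress genes summed to 117 to 236 CPM with CPT-11, against 72.4 to 127 CPM with vehicle, and 3 of 6 rose, among them the heat shock genes Hspa1a (6.67-fold, adjusted p = 0.0183) and Hspa1b (4.33-fold, 0.0116). Stroma and endothelium markers summed to 37.3 to 99.2 CPM with CPT-11 and to 17.4 to 38.2 CPM with vehicle, and 0 of 5 tested passed. The sum of the interferon-stimulated genes was higher in every CPT-11 library than in any vehicle library, and 4 of the 14 tested rose and 0 fell, against 2.98% and 2.52% of all genes. Of those 14, 8 did not overlap between groups, all higher with CPT-11, and 6 did overlap. Of all genes, 8.41% were higher without overlap. The part of these sets in the members' levels was not tested.

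Leaving out single libraries moved the members' counts. Without vehicle replicate 4, 12 of 32 tested members had an unadjusted p below 0.05 upward (37.5%, against 11.7% of all genes in that fit) and 1 downward. Still 0 passed the adjusted threshold, and the members' median log2 fold change was 0.46. Without CPT-11 replicate 2 the median was 0.25, with 6 of 32 upward at an unadjusted p below 0.05 (18.8%, against 13.1% of all genes) and 1 downward.

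Other genes of the pathway were followed in lists of their own. Of 25 genes of interferon signalling and class I transcription, 1 rose and 0 fell. It was Ifnar2, a chain of the type I interferon receptor (6.63 ± 0.904 to 11.7 ± 2.86 CPM, adjusted p = 0.0426). Leaving out 1 library ended that call for each of the 4 vehicle libraries and for CPT-11 replicates 1 and 4 (edgeR adjusted p 0.0650 to 0.132). The log2 fold change was 1.34 for Irf7, an interferon-induced transcription factor (adjusted p = 0.0558) and 0.72 for Stat2, which carries interferon signals to the nucleus (0.0628). For Irf1, an activator of class I genes, it was -0.34 (0.346). Of 16 constitutive proteasome genes, 0 passed, 15 had positive fold changes (13 with scaling by total counts alone) and the median was 0.19. Of 12 genes of folding in the endoplasmic reticulum, 0 passed and the median was 0.019, with Hspa5, the chaperone BiP, highest at 0.41 (adjusted p = 0.135). Of 14 class I-like molecules and NKG2D ligands, 6 could be tested and 0 passed.

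The 10 genes of class II presentation, which serves CD4 T cells, all had positive log2 fold changes with a median of 1.16 (0.91 and again all 10 with scaling by total counts alone), and 0 passed. H2-Aa, a class II alpha chain, was at 28.7 ± 15.1 and 84.9 ± 41.2 CPM without overlap (adjusted p = 0.0624). CPT-11 replicate 2 stood apart in the invariant chain Cd74 (792 CPM, against 252 to 276 CPM in the other CPT-11 libraries) and in the beta chains H2-Ab1 (490 against 145 to 163 CPM) and H2-Eb1 (159 against 56.1 to 71.5 CPM). The B cell markers Cd79a, Cd79b and Ms4a1, which mark cells that also express class II, rose 3.11-fold to 5.29-fold, and their part in the class II levels was not tested. Beside these values the class I members had a median of 0.31 (0.17 with scaling by total counts alone), and the difference between the lists was not tested.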

How the data were processed

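RNA sequencing had been done on ileal crypt cells in 2 groups of 4 libraries. The authors deposited 1 table of estimated counts per gene, not normalized, with 10.3% to 11.1% of values not whole. Bowtie2 2.4.1 and build GRCm38.p6 were used, per the submitters' processing notes. No counting tool or strand setting was given in the sources used here. The authors' deposited gene lengths gave CPM per kilobase. Columns were matched by name, leaving aside 2 columns of group means.

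The 543 rows without a gene name (0.325% to 0.662% of counts) were left out. Counts were rounded and fitted with edgeR 4.0.16 in R 4.3.3 (TMM, filterByExpr at its defaults of 10 and 15 counts, two-sided quasi-likelihood F test with robust fitting), with Benjamini-Hochberg adjustment over 14011 genes and a threshold of 0.05. CPM used the TMM-scaled library size. Standard errors came from the F statistic and 95% intervals from those. Alternatives used DESeq2 1.42.0 and limma 3.58.1. The fit was tested on simulated data. Positions are from GENCODE M21 (GRCm38), where all 44 members were found, and promoters from RefSeq (GRCm38.p6).

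Members, gene lists and alternatives were chosen with earlier results of these data known. Values in every library are given for 15 set genes and for each member with an unadjusted p below 0.05, and other members by range and count. Scaling by total counts alone and the paired promoter letters were added after seeing the data. Some genes of the pathway and marker lists are not reported here by name.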

Additional observations from a re-analysis of the deposited data

Results flagged for a closer look

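Of 68 groups of 4 values examined (31 members and 3 ratios in each treatment group), 3 held a library whose gap to the others was large for a group of 4 by Dixon's criterion, which chance gives in about 1 of 20 groups. B2m was at 1982 CPM in CPT-11 replicate 2, against 891 to 982 CPM in the other CPT-11 libraries. Tapbp was at 426 CPM in the same library, against 160 to 199 CPM in the others. Tapbp was also low in vehicle replicate 1, at 123 CPM against 154 to 160 CPM in the other vehicle libraries. CPT-11 replicate 2 was the highest of its group for 19 of the 31 tested members, and for 35.6% of all genes tested.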

How the results depend on the processing

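Over 19 alternatives to the edgeR fit (18 for H2-Q3), 21 of the 31 tested members kept the sign of their fold change and 23 passed the threshold in none. The number of members passing, 0 in the reported fit, was 1 with no filter, 5 with DESeq2, 4 with limma-voom and quality weights, 5 without CPT-11 replicates 2 and 4, and 0 to 2 with 1 library left out. Over all genes the 770 calls became 1884 with DESeq2, 3172 with quality weights, 1212 without CPT-11 replicates 2 and 4, 383 with scaling by total counts alone and 236 to 1522 with 1 library left out. That scaling moved the median of all genes by -0.12 on the log2 scale and left 22 members with positive and 9 with negative fold changes. The 1 called gene of the 5 pathway lists became 2 with no filter, 10 with DESeq2, 4 with limma-voom, 15 with quality weights, 3 without CPT-11 replicates 2 and 4, 0 with total counts alone and 0 to 7 with 1 library left out.

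Signs turned for 10 members. With quality weights H2-Q4 was at 0.14, H2-T3 at -0.0045, Psmb10 at -0.044 and Psme1 at -0.039. Without CPT-11 replicates 2 and 4, H2-Q4 was at 0.20, Psmb8 at -0.083, Psmb9 at -0.11, Psmb10 at -0.14, Psme1 at -0.21, Psme2 at -0.0083 and Tapbpl at 0.051. With total counts alone H2-Q7 was at -0.0034, H2-T3 at -0.074, Nlrc5 at -0.069, Psmb9 at -0.14 and Psmb10 at -0.081, and with no filter Nlrc5 was at -0.00072 and Psmb9 at -0.023. With 1 library left out, log2 fold changes ran from -0.16 to 0.095 for H2-Q4, -0.10 to 0.56 for H2-Q7, -0.010 to 0.14 for H2-T3, -0.24 to 0.56 for Nlrc5, -0.018 to 0.15 for Psmb10, -0.019 to 0.40 for Psmb8, -0.16 to 0.15 for Psmb9 and -0.031 to 0.42 for Psme1. The ratio differences ran from -0.059 to 0.26 for Psmb8 to Psmb5, -0.26 to 0.024 for Psmb9 to Psmb6 and -0.16 to -0.081 for Psmb10 to Psmb7. The cause of these shifts was not tested.

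Replicate numbers are shared by the groups. Deviations of same-numbered libraries correlated at 0.23, 0.14, -0.12 and 0.091, and those of differently numbered libraries at -0.27 to 0.24. These values cannot settle whether the numbers pair the libraries, and the labels state no pairing. With the replicate number as a block, 686 genes and 0 members were called, and Irf7 took the place of Ifnar2 (adjusted p = 0.0568) among the pathway genes. In the ratios the block left the differences at 0.12, -0.093 and -0.11, with exact permutation p = 0.875, 0.875 and 0.125. With 4 pairs 0.125 is the smallest p possible, so none could pass. Depth limits the H2-M rows at 0 to 3 counts, for which no change could be seen.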
